A study of Mus musculus with 6 samples.

Results

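The genes described here are 10 receptors by which myeloid cells sense chemoattractants, taken by symbol from the 34199 genes counted in each library. They are the chemokine receptors Cxcr2, Cxcr4, Ccr1, Ccr2 and Cx3cr1, the formyl peptide receptors Fpr1 and Fpr2, the complement receptors C5ar1 and C3ar1, and the chemerin receptor Cmklr1. Their RNA was compared among CAF-1 OFF, control and HOXA9 OFF cells, with 2 libraries per group. Enough reads for a test were found for 8 of the 10, and Fpr1 and Fpr2 are given as counts.

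All libraries came from immortalized granulocyte-macrophage progenitors (iGMPs) of C57Bl/6 mouse bone marrow, which carry the Lys-GFP reporter and the estradiol-dependent ER-HoxA9 fusion and grow in medium with stem cell factor. CAF-1 OFF cells had received 500 µM IPTG for 24 h, which induces a hairpin against Chaf1b, the middle subunit of CAF-1 (chromatin assembly factor 1, which places histones on new DNA), with estradiol kept at 150 ng/ml. Control cells, with a vector that holds a spacer in place of the hairpin, were also treated with IPTG for 24 h in estradiol. HOXA9 OFF cells had estradiol washed out for 24 h, which inactivates the fusion and starts differentiation towards neutrophils. The lines are clonal, and the labels do not say which clone gave which library or whether HOXA9 OFF cells saw IPTG, so HOXA9 OFF and control could differ in more than estradiol. CAF-1 OFF and control carry different vectors and so come from different clones, and between them clone and hairpin cannot be told apart. The study mentions RNA-seq of independent sub-clones without tying it to these libraries, and the labels do not say whether the 2 libraries of a group came from separate cultures, so p-values measure the spread between these libraries, which may be technical.

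Chemoattractant receptors are G protein-coupled receptors that turn a gradient of ligand outside the cell into directed movement. Cxcr4 holds myeloid cells in the bone marrow through its ligand Cxcl12, whereas Cxcr2 draws neutrophils into blood and tissue and Ccr2 lets monocytes leave the marrow. Formyl peptide and complement receptors read bacterial products and complement fragments and are features of mature phagocytes.

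Between 16773560 and 25170898 reads per library were assigned to genes, so that 3 counts equalled 0.118 to 0.182 CPM (counts scaled to a common library size). A gene was called changed when it passed a 1.5-fold difference and a false discovery rate (FDR) under 0.05 in the quasi-likelihood test of edgeR. The hairpin target Chaf1b was at 89.95 and 105 CPM in control, 17.8 and 12.1 CPM in CAF-1 OFF and 64.6 and 61.4 CPM in HOXA9 OFF, and was called lower in CAF-1 OFF (log2 fold change -2.71 ± 0.20 SE, FDR 0.0198). Of 6 progenitor markers (Cd34, Kit, Flt3, Fcgr3, Mpo and Myb), all were above 3 counts in every group, and of 6 T cell markers Cd3e, Cd3g and Cd8a were at 0 in all 6 libraries, while Cd3d and Cd4 had at most 2 reads in a library. The kinase gene Lck, also on that list, had 45 and 81 reads in control and 78 and 62 in CAF-1 OFF, and was called lower in HOXA9 OFF with 7 and 11 (FDR 0.0180).

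The start regions of 4 of the receptors are printed because these genes moved apart. Ccr1 and Ccr2 are neighbours on chromosome 9 with opposite changes in HOXA9 OFF cells, C5ar1 rose steeply there, and Cmklr1 fell. Each line holds 250 bases before and 50 after the RefSeq start on build GRCm38.p6, read on the gene's own strand from 5′ to 3′. Capitals mark AGGAAG, the core bound by ETS factors such as PU.1, on either strand, where CTTCCT is the same core on the opposite strand.
C5ar1: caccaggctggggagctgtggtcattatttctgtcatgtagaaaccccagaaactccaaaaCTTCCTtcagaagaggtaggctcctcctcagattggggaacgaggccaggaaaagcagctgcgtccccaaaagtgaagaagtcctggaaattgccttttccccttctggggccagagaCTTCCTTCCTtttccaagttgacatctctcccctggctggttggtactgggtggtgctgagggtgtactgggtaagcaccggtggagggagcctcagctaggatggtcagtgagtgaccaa
Ccr1: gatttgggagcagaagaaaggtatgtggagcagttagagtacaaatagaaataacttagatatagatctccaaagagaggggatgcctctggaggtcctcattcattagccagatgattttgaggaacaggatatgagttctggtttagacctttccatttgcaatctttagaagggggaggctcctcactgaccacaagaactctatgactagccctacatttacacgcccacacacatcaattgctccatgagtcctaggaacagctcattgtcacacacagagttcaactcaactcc
Ccr2: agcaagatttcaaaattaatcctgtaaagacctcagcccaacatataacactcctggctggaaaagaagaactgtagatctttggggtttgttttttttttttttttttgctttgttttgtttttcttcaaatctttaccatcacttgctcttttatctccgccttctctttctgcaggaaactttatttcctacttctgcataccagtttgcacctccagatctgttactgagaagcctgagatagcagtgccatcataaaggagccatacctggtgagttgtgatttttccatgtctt
Cmklr1: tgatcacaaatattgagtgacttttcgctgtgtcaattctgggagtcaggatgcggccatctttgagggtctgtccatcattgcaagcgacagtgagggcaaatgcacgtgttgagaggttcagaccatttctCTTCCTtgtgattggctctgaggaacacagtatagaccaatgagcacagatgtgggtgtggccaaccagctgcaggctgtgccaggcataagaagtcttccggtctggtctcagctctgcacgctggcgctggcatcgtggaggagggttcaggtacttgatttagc
The 4 windows lie at chr7:16259289-16259588 (minus strand), chr9:123968643-123968942 (minus strand), chr9:124101933-124102232 (plus strand) and chr5:113643554-113643853 (minus strand). Of the 10 receptors, 4 had the ETS core in this window, Cxcr2 with 2 matches, C5ar1 with 3, of which 2 overlap, and C3ar1 and Cmklr1 with 1 each. The core was present in 35.4% of 32851 mouse start regions of the same length. A C/EBP element written as TTGCNNAA was found in 0 of the 10 windows on either strand, against 10.8% of all start regions. These matches describe letters only, and no binding was measured.

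In HOXA9 OFF cells, 6 of the 8 tested receptors rose and 2 fell. Cxcr2, Cxcr4, Ccr1, Cx3cr1, C5ar1 and C3ar1 were called higher than in control, where 13.02% of all 12460 genes tested were called higher. Ccr2 and Cmklr1 were called lower, where 8.973% of all genes were. C3ar1 passed the filter on low counts through the HOXA9 OFF libraries alone, so it had to differ, and without it 5 of 7 were called higher and 2 lower. With library size alone, 1434 genes were called higher and 1409 lower, in place of 1622 and 1118. The median log2 fold change of these 7 receptors was 3.12, beside -0.0035 over all genes. Such values come from bulk RNA, in which more or fewer cells of a type and more or less RNA per cell cannot be told apart.

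In CAF-1 OFF cells, 0 of the 8 receptors were called against control by edgeR, where 0.0321% of all genes (4 of 12460) were called. At an unadjusted p under 0.05 the test gave 4 of the 8, all higher (Cxcr2, Ccr1, Cx3cr1 and C5ar1), where 6.477% of all genes were higher at that p (807 of the 1330 that passed it in either direction). DESeq2 called 3 of the 8 (C5ar1, Ccr1 and Cxcr2), all higher, and called 1.389% of the 12095 genes to which it gave an adjusted p higher (168 of 197 called in either direction). For 5 receptors (those 4 and Cmklr1) both CAF-1 OFF libraries lay above both controls, which was so for 20.1% of all genes. The median log2 fold change was 1.30 over 7 receptors, leaving out C3ar1, which had 1 read in the 4 libraries compared.

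Between CAF-1 OFF and HOXA9 OFF cells, 7 of the 8 receptors differed. Ccr2 and Cmklr1 were called higher in CAF-1 OFF, as were 9.559% of all genes. Cxcr2, Cxcr4, Ccr1, C5ar1 and C3ar1 were called lower, as were 12.55% of all genes, and without C3ar1 2 of 7 were higher and 4 lower. With library size alone as the scaling the receptor calls were equal in number, but the balance over all genes turned, with 1475 genes higher and 1334 lower in place of 1191 and 1564. This is the direct test between the 2 treatments, and it shares its HOXA9 OFF and CAF-1 OFF libraries with the comparisons against control.

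**Figure D1:**
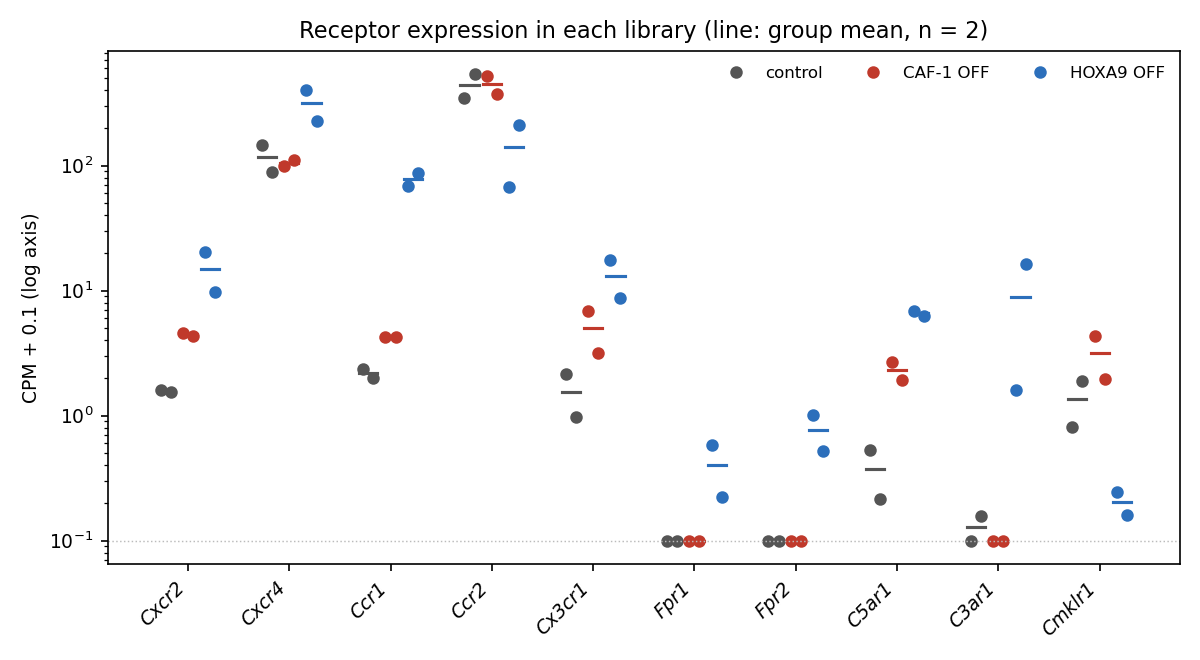
Expression of the 10 receptors in each of the 6 libraries, as CPM plus 0.1 on a log axis, with lines at the mean of the 2 libraries of a group and a dotted line at 0 CPM. Both HOXA9 OFF libraries lie above both controls for all receptors but Ccr2 and Cmklr1, where both lie below. The share of all genes that separate in this way was not counted. Over all genes tested edgeR called 13.02% higher and 8.973% lower.

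Per kilobase of annotated exon, Ccr2 and Cxcr4 were the leading receptors of control cells, at 69.3 ± 21.3 and 65.2 ± 22.7 CPM per kb (SD, n = 2), and these ranges overlapped. Ccr1 was next at 0.734 ± 0.0808 CPM per kb, and the other 7 were lower. CAF-1 OFF cells held the same 2 receptors in front, with Ccr2 at 69.6 ± 16.0 and Cxcr4 at 58.1 ± 4.16 CPM per kb, again with overlap. In HOXA9 OFF cells the order had changed. Cxcr4 led at 175 ± 68.1 CPM per kb, above all others in both libraries, and Ccr1 at 27.7 ± 4.72 and Ccr2 at 21.8 ± 16.0 CPM per kb overlapped. Cmklr1 was last of the 10 there, at 0.0301 ± 0.0175 CPM per kb, below both formyl peptide receptors.

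Cxcr2 binds the CXC chemokines that summon neutrophils (Cxcl1, Cxcl2 and their relatives). The gene lies on chromosome 1 (NCBIM37, 74200563 to 74207812, plus strand). Its level was 1.49 and 1.45 CPM in control, 4.47 and 4.25 CPM in CAF-1 OFF, and 20.1 and 9.58 CPM in HOXA9 OFF. The 3 groups did not overlap and stood in this order. Against control, Cxcr2 rose 10.1-fold in HOXA9 OFF (log2 fold change 3.33 ± 0.39 SE, FDR 0.00204). In CAF-1 OFF the log2 fold change was 1.56 ± 0.39 (FDR 0.266 by edgeR, 0.0310 by DESeq2), and set directly against HOXA9 OFF the gene was called lower (-1.77 ± 0.36, FDR 0.0133). Without HOXA9 OFF library 1, the higher of that pair, the value against control was 2.69 (FDR 0.00566) and the direct one -1.12 (FDR 0.0668). The direct call was also lost without CAF-1 OFF library 1 (FDR 0.0515).

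Cxcr4, the receptor for the marrow chemokine Cxcl12, lies on chromosome 1 (130484776 to 130488870, minus strand). It was at 147 and 88.9 CPM in control, 99.7 and 110 CPM in CAF-1 OFF, and 403 and 229 CPM in HOXA9 OFF. Both CAF-1 OFF values fell inside the control range, and both HOXA9 OFF values lay above it. The increase in HOXA9 OFF was 2.68-fold (log2 fold change 1.42 ± 0.32, FDR 0.0168). In CAF-1 OFF the log2 fold change was -0.17 ± 0.31 (FDR 0.892), and CAF-1 OFF was called lower than HOXA9 OFF (-1.59 ± 0.32, FDR 0.0122). Cxcr4 was thus the receptor with the smallest called change against control, and its call was lost without control library 2 (FDR 0.0785) or HOXA9 OFF library 1 (FDR 0.0691), and its direct call without CAF-1 OFF library 1 (FDR 0.0560).

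Ccr1 is a receptor for inflammatory CC chemokines of the Ccl3, Ccl6 and Ccl9 kind, found on neutrophils and monocytes. The gene lies on chromosome 9 (123876959 to 123883525, minus strand). Its level was 2.24 and 1.92 CPM in control, 4.16 and 4.15 CPM in CAF-1 OFF, and 69.0 and 87.9 CPM in HOXA9 OFF. The groups did not overlap, and the libraries of each group were close. Ccr1 rose 37.3-fold in HOXA9 OFF (log2 fold change 5.22 ± 0.20, FDR 0.000102), which placed it at rank 70 from the top of the 12460 genes. The log2 fold change in CAF-1 OFF was 0.99 ± 0.20 (FDR 0.192 by edgeR, 0.0232 by DESeq2). CAF-1 OFF was called 18.8-fold lower than HOXA9 OFF (-4.24 ± 0.18, FDR 0.000138).

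Ccr2, the receptor for Ccl2 that marks inflammatory monocytes and part of the progenitors, went the opposite way. The gene lies on chromosome 9 (124016689 to 124028296, plus strand). It was at 346 and 539 CPM in control, 517 and 373 CPM in CAF-1 OFF, and 67.2 and 212 CPM in HOXA9 OFF. Both CAF-1 OFF values fell inside the control range, and both HOXA9 OFF values lay below it. The decrease in HOXA9 OFF was 3.18-fold (log2 fold change -1.67 ± 0.51, FDR 0.0469), close to the FDR limit. The log2 fold change in CAF-1 OFF was 0.0079 ± 0.49 (FDR 0.999), and the direct comparison of the treatments called Ccr2 higher with CAF-1 OFF (1.68 ± 0.51, FDR 0.0460). Of the 6 fits that left out 1 library, 5 lost the call against control, with FDR from 0.0537 to 0.184, and the fit without HOXA9 OFF library 2 kept it at -2.71 (FDR 0.00556). Without HOXA9 OFF library 1 the value was -1.07 (FDR 0.0768). The direct call was lost in 5 of the 6 fits too. The direct value was 2.73 without HOXA9 OFF library 2 and 1.08 without HOXA9 OFF library 1.

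**Figure D2:**
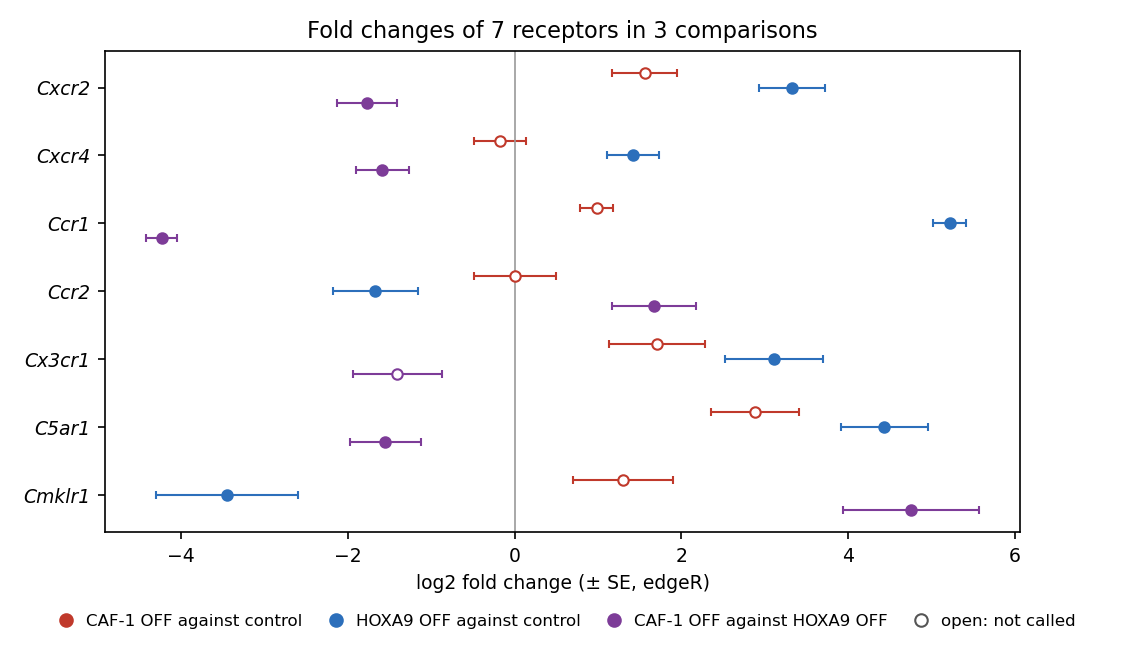
Log2 fold change with its SE (edgeR, 2 libraries per group) of 7 receptors in the 3 comparisons, with open points for those not called. Points for CAF-1 OFF against control are all open, and Ccr2 and Cmklr1 have HOXA9 OFF points below 0. C3ar1 is left out because CAF-1 OFF held 0 reads.

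Ccr1 and Ccr2 stand in a cluster of chemokine receptor genes, the Ccr1 start lying at -133.2 kb from that of Ccr2. From 500 kb before the Ccr2 start up to Ccr2 itself there are 12 protein-coding genes, of which 4 could be tested. Besides Ccr1 at 5.22 and Ccr2 at -1.67, these were Lztfl1 (-0.17 ± 0.16, FDR 0.452) and Fyco1 (0.87 ± 0.22, FDR 0.0280) in HOXA9 OFF. Ccr3, Ccr9, Cxcr6, Xcr1 and Ccr1l1 had too few reads. Of 50-base stretches in Ccr2 transcripts, 1.75% also occur in other genes.

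**Figure D3:**
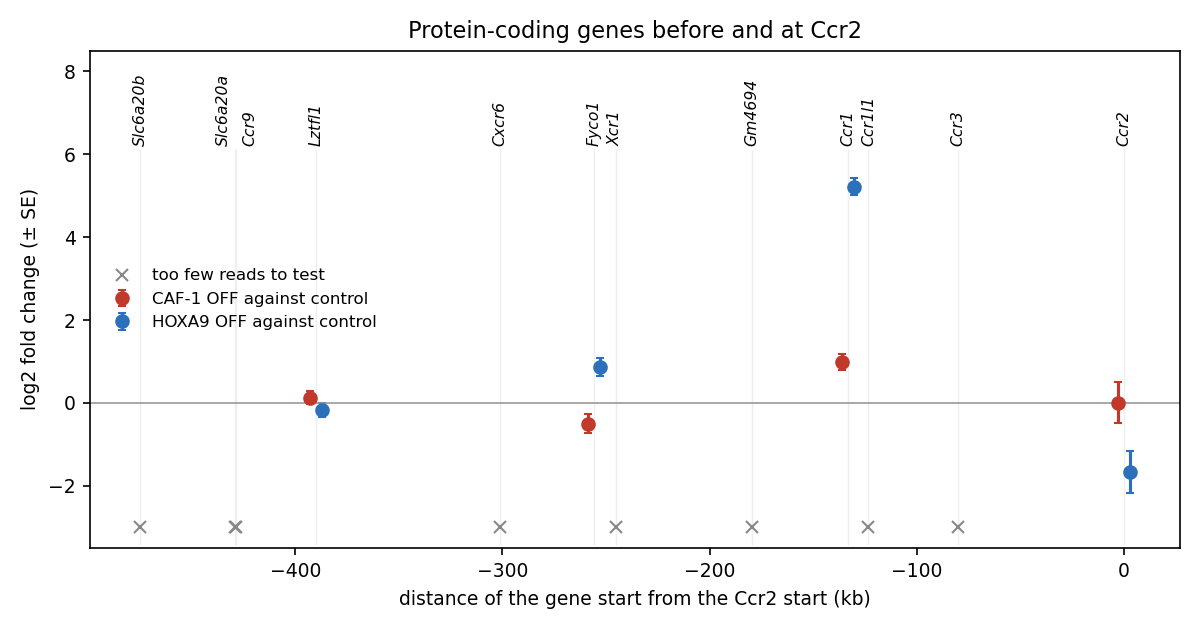
Log2 fold change with its SE (edgeR) for protein-coding genes from 500 kb before the Ccr2 start up to Ccr2, by the distance of their start from that of Ccr2 (kb), with crosses for genes too low to test. In HOXA9 OFF, Ccr1 stands at 5.22 and Ccr2 at -1.67.

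Cx3cr1 binds the membrane-anchored chemokine fractalkine and is a gene of patrolling monocytes, macrophages and microglia. It lies on chromosome 9 (119957811 to 119977400, minus strand), outside the 500 kb window before Ccr2. Cx3cr1 was at 2.04 and 0.871 CPM in control, 6.70 and 3.09 CPM in CAF-1 OFF, and 17.4 and 8.55 CPM in HOXA9 OFF. The groups did not overlap, although library 1 was the higher in each group. The increase in HOXA9 OFF was 8.66-fold (log2 fold change 3.12 ± 0.59, FDR 0.00942). Without control library 1 it was 3.88 (FDR 0.0215), and without HOXA9 OFF library 1 it was 2.51 (FDR 0.0427). The log2 fold change in CAF-1 OFF was 1.71 ± 0.58 (FDR 0.369), and it was 1.04 without CAF-1 OFF library 1 and 2.49 without control library 1. The difference between the treatments, -1.41 ± 0.54, was not called by edgeR after the filter on low counts (FDR 0.0909), whereas DESeq2 (FDR 0.0359) and edgeR with no filter (FDR 0.00129) called it. It was -2.07 without CAF-1 OFF library 1 and -0.79 without HOXA9 OFF library 1.

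Fpr1 and Fpr2 sense N-formylated peptides from bacteria and mitochondria. They are neighbours on chromosome 17 (18013435 to 18020904, minus strand, and 18024788 to 18030916, plus strand). Both had 0 reads in all 4 control and CAF-1 OFF libraries. In HOXA9 OFF, Fpr1 had 10 and 2 reads and Fpr2 had 19 and 7. Fpr2 was thus at 0.917 and 0.424 CPM, at least 4.59-fold higher than control when each control library is set to 3 counts, and at least 4.36-fold higher than CAF-1 OFF on the same floor. From library 1 alone these bounds were 6.28 and 5.96, and from library 2 alone 2.91 and 2.76. Fpr1 stayed at or under the floor in 1 HOXA9 OFF library, and no fold is given. A total of 48 exon bases of Fpr2 are shared with Fpr3 on the same strand, and 7.2% of its 50-base stretches recur in Fpr1 or Fpr3, so its reads cannot be fully assigned.

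C5ar1, the receptor for the complement fragment C5a, lies on chromosome 7 (16832092 to 16844889, minus strand). It was at 0.432 and 0.116 CPM in control (11 and 2 reads), 2.60 and 1.82 CPM in CAF-1 OFF, and 6.76 and 6.18 CPM in HOXA9 OFF. The groups did not overlap and stood in the same order as for Cxcr2, Ccr1 and Cx3cr1. The increase in HOXA9 OFF was 21.6-fold (log2 fold change 4.44 ± 0.52, FDR 0.00199). Of the receptors, C5ar1 had the highest log2 fold change in CAF-1 OFF, 2.89 ± 0.53, rank 56 from the top of all genes tested, with FDR 0.153 by edgeR and 0.000715 by DESeq2. Library 1 of control held most of the control reads, and without it the log2 fold changes were 5.71 in HOXA9 OFF (FDR 0.00448) and 4.18 in CAF-1 OFF (FDR 0.226). CAF-1 OFF was called lower than HOXA9 OFF (-1.55 ± 0.43, FDR 0.0352), a call lost without any 1 of the 4 libraries of these groups (FDR 0.0726 to 0.138).

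C3ar1, the receptor for the complement fragment C3a, lies on chromosome 6 (122797156 to 122806179, minus strand). It had 0 and 1 reads in control, 0 and 0 in CAF-1 OFF, and 31 and 265 in HOXA9 OFF. Its HOXA9 OFF levels, 1.496 and 16.1 CPM, were the most unequal pair of that group among the 10 receptors, yet both lay above every other library. The ratio of summed counts, HOXA9 OFF over control, was 339, with an exact 95% interval of 60.5 to 13450. This interval, like the others given here for ratios of summed counts and like the floors of 3 counts, covers counting error only, since PCR copies are not independent molecules. HOXA9 OFF was at least 57.1-fold higher than CAF-1 OFF when each CAF-1 OFF library is set to 3 counts, a bound that was 9.72 from library 1 alone and 104 from library 2 alone. Since the gene entered the edgeR test through its HOXA9 OFF reads alone, its calls (FDR 0.0187 against control and 0.0174 against CAF-1 OFF) add no support to these counts, and the first was lost without control library 1 (FDR 0.0885) or 2 (FDR 0.0730) and the second without CAF-1 OFF library 1 (FDR 0.0532). Without HOXA9 OFF library 2 the fitted log2 fold change against control was 5.65 and without library 1 it was 9.06, beside 8.18 with both. With 1 control read these fitted values depend on the prior count, and no fitted size is given against CAF-1 OFF, where both libraries were at 0.

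Cmklr1 is the receptor for chemerin, a protein that attracts macrophages, dendritic cells and natural killer cells. It lies on chromosome 5 (114062363 to 114100435, minus strand), and the antisense gene Gm15736 overlaps its introns but no exon. Cmklr1 was at 0.707 and 1.80 CPM in control (18 and 31 reads), 4.21 and 1.87 CPM in CAF-1 OFF (81 and 37 reads), and 0.145 and 0.0606 CPM in HOXA9 OFF (3 and 1 reads, at or under the floor of 3 counts, so that ratios are given with their counting intervals). Both HOXA9 OFF libraries were below and both CAF-1 OFF libraries above the controls, the lower of the CAF-1 OFF pair by little. From summed counts HOXA9 OFF was 10.7-fold lower than control (95% interval 3.92 to 40.8), called by edgeR at FDR 0.0237. This call was lost without control library 2 (-2.66, FDR 0.101), HOXA9 OFF library 1 (-4.21, FDR 0.0854) or HOXA9 OFF library 2 (-3.03, FDR 0.107), beside a fitted log2 fold change of -3.45 ± 0.85 with all. The log2 fold change in CAF-1 OFF was 1.30 ± 0.60 (FDR 0.506), and it was 0.60 without CAF-1 OFF library 1 and 2.11 without control library 2. CAF-1 OFF exceeded HOXA9 OFF by 28.2-fold (95% interval 10.7 to 105, FDR 0.00715). The fitted value of that difference, 4.75 ± 0.82, was 4.06 without CAF-1 OFF library 1 and 5.52 without HOXA9 OFF library 1.

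**Figure D4:**
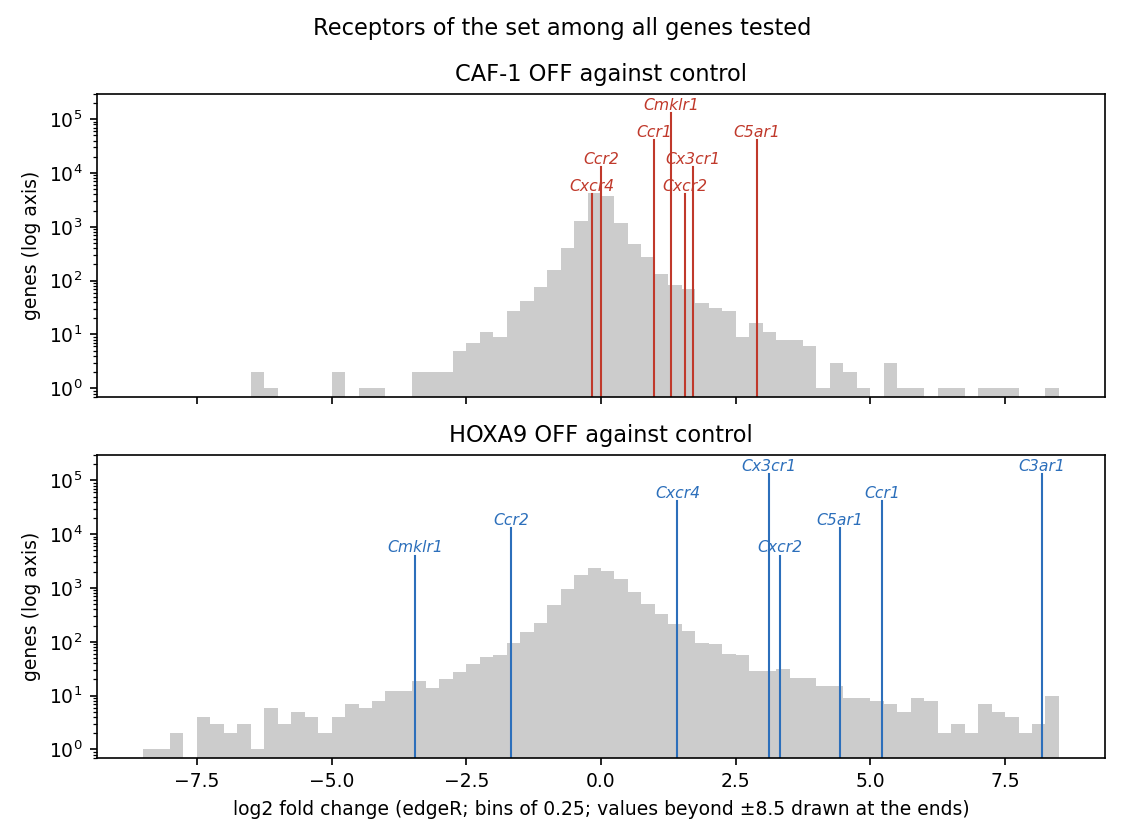
Log2 fold changes (edgeR) of all 12460 genes tested as histograms with a log count axis, for CAF-1 OFF and for HOXA9 OFF against control, with lines at the receptors. In HOXA9 OFF the receptors stand in both tails, from Cmklr1 at -3.45 to C3ar1 at 8.18. In CAF-1 OFF (C3ar1 not drawn) 5 stand to the right, up to C5ar1 at 2.89, and Cxcr4 and Ccr2 near 0.

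The receptors fell into sets by their order across groups. In Cxcr2, Ccr1, Cx3cr1 and C5ar1 the CAF-1 OFF libraries lay above both controls and below both HOXA9 OFF libraries, an order found in 5.626% of all genes tested. These 4 also kept their HOXA9 OFF calls in each of the 6 fits that left out 1 library, and under the stricter limits of a 2-fold change and an FDR under 0.01. Cxcr4 and Ccr2, the most abundant receptors of control cells, did not separate CAF-1 OFF from control. In Cmklr1 the 2 treatments lay on opposite sides of control, and the share of all genes in that order was not counted. Fpr1, Fpr2 and C3ar1 had more than 1 read only in HOXA9 OFF. Between the treatments, Ccr1 and Cmklr1 were the receptors whose calls held in each of the 6 fits.

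Markers of mature myeloid cells moved with the receptors, and their part in the result was not tested. Of 9 neutrophil markers tested, 8 were called higher in HOXA9 OFF than in control and 0 in CAF-1 OFF, and the summed level of all 10, in CPM, was 100.4 to 109.1 for control, 433.6 to 695.8 for CAF-1 OFF and 469.8 to 837.3 for HOXA9 OFF. Most of the CAF-1 OFF sum was Mmp8, at 332 and 630 CPM. The count of 0 came from a comparison where edgeR called 0.0321% of all genes. Yet each of the 9 tested neutrophil markers leaned upward there (median log2 fold change 1.41), as did 49.2% of all genes tested. S100a8, for one, stood at 17.4 and 16.6 CPM with CAF-1 OFF, beside control values of 2.51 and 2.32 CPM (FDR 0.098 by edgeR). Of 8 monocyte and macrophage markers tested, 7 were called higher in HOXA9 OFF and 0 in CAF-1 OFF, with sums, in CPM, of 1104 to 1140 for control, 1082 to 1620 for CAF-1 OFF and 1999 to 2886 for HOXA9 OFF. The progenitor sum, mostly Mpo (4109 to 8546 CPM over the 6 libraries), was 7713 to 10230 for control, 11050 to 12080 for CAF-1 OFF and 8235 to 10210 for HOXA9 OFF, and of its 6 genes 4 (Cd34, Kit, Flt3 and Myb) were called lower and 1 (Fcgr3, log2 fold change 1.63 ± 0.19, FDR 0.00185) higher in HOXA9 OFF.

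Markers of other lineages moved too, and their part was not tested either. Of 5 megakaryocyte genes tested, 3 were called higher in HOXA9 OFF (Itga2b, Itgb3 and Ppbp), with sums of 88.01 to 108.3 CPM for control, 109.0 to 159.8 for CAF-1 OFF and 261.3 to 288.4 for HOXA9 OFF. Of 6 mast cell and basophil genes tested, Hdc was called higher, and the sums were 205.1 to 266.6, 273.1 to 654.0 and 492.6 to 509.5 CPM in the same order. Among the B cell genes reported here Ighm was called higher, and the list had sums of 67.13 to 79.01, 55.66 to 62.2 and 169.9 to 192.0 CPM. Of 2 erythroid genes tested, 0 were called by edgeR, and that sum was at most 4.89 CPM in any library. In CAF-1 OFF 0 genes of these lists were called against control by edgeR, which called 0.0321% of all genes. All 5 tested megakaryocyte genes still had positive values there (median log2 fold change 0.937), beside 49.2% of all genes tested. Control held Pf4 at 2.6 and 2.8 CPM. CAF-1 OFF held it at 14.2 and 9.2 CPM, and HOXA9 OFF at 2.7 and 6.4 CPM. Against control its edgeR FDR was 0.199 for the first treatment and 0.255 for the second. The direct difference for Pf4 was 1.37 ± 0.43 (FDR 0.051), and 2 of the 5 genes were positive in that test.

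Among 32 further chemoattractant receptors, 10 had enough reads, and in HOXA9 OFF 4 were called higher and 1 lower. Cxcr3 passed the filter through HOXA9 OFF alone, and without it 3 of 9 were higher and 1 lower, where 13.02% and 8.973% of all genes were. The median log2 fold change of these 9 was 0.10. The receptors called higher included Cxcr3, Gpr77 (the second C5a receptor, 2.84 ± 0.73, FDR 0.0272) and Ltb4r1 (a leukotriene B4 receptor of neutrophils, 2.36 ± 0.26, FDR 0.00174). The Gpr77 libraries were unequal, at 4.05 and 1.46 CPM in HOXA9 OFF beside 0.314 and 0.464 CPM in control. Cxcr3 had 24 and 9 reads in HOXA9 OFF and 0 in both controls, at least 5.83-fold higher (7.93-fold from library 1 alone and 3.74-fold from library 2). Ccr7, which guides cells to lymph nodes, fell from 19 and 44 reads to 2 and 3, a ratio of 11.0 (95% interval 4.47 to 35.0, FDR 0.0189). Cxcr3 lost its call without control library 1 or 2 (FDR 0.0936 and 0.0843), and Gpr77 without control library 1 or 2 or HOXA9 OFF library 1 (FDR 0.130, 0.0957 and 0.163). Ccr7 lost it without control library 2 or either HOXA9 OFF library (FDR 0.103, 0.113 and 0.0661). In CAF-1 OFF 0 of the 10 were called against control, where 0.0321% of all genes were. Their median was 0.78, or 0.731 over 9 without Ccr10, which passed the filter through CAF-1 OFF alone. Against HOXA9 OFF 2 were called lower, Ltb4r1 among them (-1.63 ± 0.26, FDR 0.00541).

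Of 21 ligand genes for the 10 receptors, 11 were tested, and 6 were called higher and 1 lower in HOXA9 OFF than in control, or 5 and 1 of 10 without Saa3, which passed the filter through HOXA9 OFF alone. Over all genes tested 13.02% were called higher and 8.973% lower. Camp, whose peptide acts on Fpr2, rose by 6.25 ± 0.48 on the log2 scale (FDR 0.000561), C3, the source of C3a, by 4.37 ± 0.47 (FDR 0.00156), Ccl6 by 4.11 ± 0.64 (FDR 0.00498) and Anxa1, another Fpr2 ligand, by 2.74 ± 0.19 (FDR 0.000475). Ppbp, a Cxcr2 ligand, was called at FDR 0.0459 but had 6 and 122 reads in HOXA9 OFF, and 5 of the 6 fits without 1 library lost the call, with FDR from 0.0533 to 0.419. Without control library 1 the values of C3 and Ccl6 were 5.16 and 5.89, without control library 2 that of Ccl6 was 3.42, and without HOXA9 OFF library 1 that of Camp was 5.66. Ccl9, a Ccr1 ligand, fell from 1016 and 898 CPM in control to 335 and 467 CPM (-1.26 ± 0.17, FDR 0.00327), so it moved against its receptor. In CAF-1 OFF 0 of the 11 were called against control, where 0.0321% of all genes were, and the list median was 1.27. The Cxcr2 ligand Cxcl3, which passed the filter through CAF-1 OFF alone, was nearest, with 97 and 108 reads against 4 and 1 (ratio 44.9, 95% interval 18.9 to 140.0; FDR 0.0627 by edgeR and 1.37e-07 by DESeq2), and its edgeR FDR without 1 library ran from 0.0352 (without HOXA9 OFF library 2) to 0.430 (without control library 2). It passed the limit in the 2 fits without a HOXA9 OFF library and in 0 of the 4 without a library of the groups compared, and the fitted log2 value of 5.44 was 6.35 without control library 1. Anxa1 was at 1.52 ± 0.19 (FDR 0.0865 by edgeR and 1.39e-11 by DESeq2). In the direct comparison Cxcl3 (4.23 ± 0.55, FDR 0.00291) and Ccl9 (1.35 ± 0.17, FDR 0.00279) were called higher in CAF-1 OFF. Since Cxcl3 entered the test through CAF-1 OFF alone, its call adds no support to its counts. Without Cxcl2, Cxcl3 and Saa3, which each entered through 1 group, 1 of 8 was higher and 4 lower. Over all genes 9.559% were higher and 12.55% lower. Without HOXA9 OFF library 1 or 2 the Cxcl3 value was 3.62 or 5.12.

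Below the receptors, 36 of 37 genes of G protein signalling were tested. In HOXA9 OFF 22 were called higher and 0 lower, where 13.02% and 8.973% of all genes were. The median log2 fold change of the 36 was 0.80. Among the largest increases were Pik3r5 (3.34 ± 0.31, FDR 0.00102) and Pik3r6 (2.04 ± 0.17, FDR 0.000670), the regulatory subunits of the phosphoinositide 3-kinase that G protein βγ dimers activate. Grk5, a kinase that switches receptors off, rose by 3.04 ± 0.58 (FDR 0.00989; 3.65 without control library 2 and 2.21 without HOXA9 OFF library 2), and the Src family kinase Fgr rose by 2.61 ± 0.37 (FDR 0.00369). In CAF-1 OFF 0 of the 36 were called against control, where 0.0321% of all genes were, and the list median was 0.054. Against HOXA9 OFF, 20 of the 36 were called lower in CAF-1 OFF and 0 higher, where 12.55% and 9.559% of all genes were. These lists were chosen with earlier results of the same libraries known, and their counts are given as a description.

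**Figure D5:**
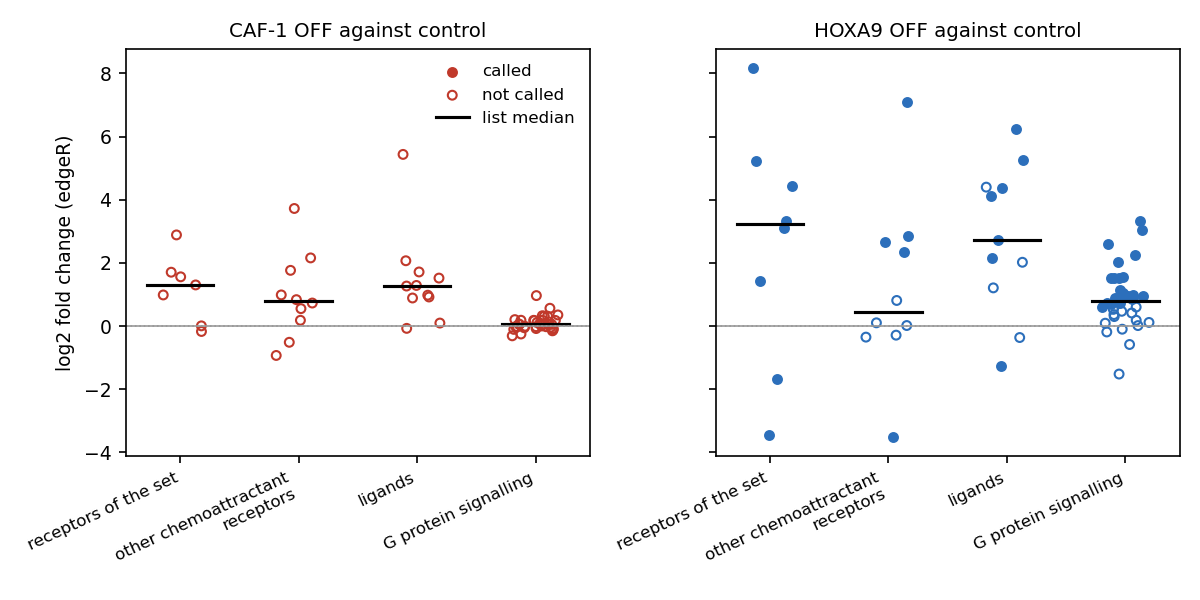
Log2 fold change (edgeR) of tested genes in 4 lists, for CAF-1 OFF and HOXA9 OFF against control, with filled points for called genes, a black line at each list median and a dotted line at the median of all genes. The CAF-1 OFF panel (C3ar1 not drawn) holds 0 filled points, and the HOXA9 OFF panel holds 8, 5, 7 and 22 from left to right.

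For each tested receptor the gene with the most similar profile was found as the highest Pearson correlation of log2 CPM over the 6 libraries, among 12459 other genes. These were Rdh12 for Cxcr2 (0.994), Heca for Cxcr4 (0.999), Tnfrsf1b for Ccr1 (0.999), 6330409N04Rik for Ccr2 (0.997), Ankrd13a for Cx3cr1 (0.992), Ankrd22 for C5ar1 (0.994), Litaf for C3ar1 (0.997) and Aarsd1 for Cmklr1 (0.995). The points share libraries and fall into 3 groups, so these values are a description of 6 points and carry no test.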

How the data were processed

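RNA was sequenced from 6 libraries made with a kit that marks strand. Alignment by the authors used STAR and the mm9 build, and HTSeq gave reads per gene. The deposited values are raw read counts per gene symbol. The annotation and strand setting of the counting are not given in the sources used here, so overlapping genes are uncertain. The 5 tally lines of each file were left out.

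For tests, edgeR 4.0.16 was used under R 4.3.3. filterByExpr by group left 12460 genes, library sizes were scaled by TMM (0.954 to 1.03), and 1 quasi-likelihood model was fitted to all 6 libraries, with Benjamini-Hochberg FDR over all genes. The SE is the absolute log2 fold change over the square root of F.

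Alternatives were DESeq2 1.42.0 (its Wald test, and its size factors), library size alone, no filter, stricter limits, a replicate block and leaving out each library. The members and lists were chosen with earlier results of these data known. Of the further lists, called genes were named, at most 5 in each direction, and some are not reported here. Positions are from GENCODE on NCBIM37, the assembly mm9 names, and start regions from RefSeq GRCm38.p6, where 10 of 10 members matched by symbol.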

Additional observations from a re-analysis of the deposited data

Results flagged for a closer look

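For Cmklr1, both libraries of one treatment lay above both controls (CAF-1 OFF, 4.21 and 1.87 CPM, with controls at 0.707 and 1.80 CPM) and both of the other below (HOXA9 OFF, 0.145 and 0.0606 CPM). HOXA9 OFF held only 3 and 1 reads. Both CAF-1 OFF libraries lay above both controls in 20.1% of all genes tested. The share of genes with the treatments on opposite sides of control was not counted. The direct edgeR test between the treatments gave a log2 fold change of 4.75 ± 0.82 (SE, FDR 0.00715). Against control, the HOXA9 OFF side was called (FDR 0.0237) and the CAF-1 OFF side was not (FDR 0.506). The HOXA9 OFF call was lost without control library 2 or without either HOXA9 OFF library.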

How the results depend on the processing

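Counts in CAF-1 OFF against control depended on the method, with 0 receptors and 4 genes called by edgeR after filtering, 3 receptors and 197 genes by DESeq2, 4 receptors and 378 genes with no filter, and 0 genes at 2-fold and an FDR under 0.01. Leaving out 1 library gave 0 to 10 genes and 0 receptors. The sign of receptors not called turned in 3 fits, for Cxcr4 without control library 1 (0.24, lowest -0.48 without control library 2) and for Ccr2 with no filter (-0.0030), without CAF-1 OFF library 1 (-0.25) and without control library 1 (-0.27, highest 0.37 without control library 2). In HOXA9 OFF against control, leaving out 1 library gave 4 to 8 receptors (4 without control library 2, 5 without HOXA9 OFF library 1) and 1602 to 2840 genes, against 8 and 2740, and the stricter limits gave 4 receptors and 987 genes. Between the treatments, leaving out 1 library gave 2 to 7 receptors (2 without CAF-1 OFF library 1, 4 without HOXA9 OFF library 1) and 1711 to 2718 genes, against 7 and 2755, and the stricter limits gave 2 and 948. The lone library left in a group was assumed to vary like the other groups. DESeq2 and the fit with no filter also called Fpr2 and Cx3cr1 between the treatments, 9 receptors in each, beside 2853 of 13578 and 3258 of 19883 genes. In HOXA9 OFF against control the fit with no filter called Fpr2 as well (FDR 0.00184), 9 receptors beside 3215 of 19883 genes. The fits without CAF-1 OFF library 1 or 2 also called Fpr2 (log2 fold change 6.77 and 6.76) and did not call Ccr2. Fpr2 had reads in HOXA9 OFF alone, so each of its tests rested on that group. Its calls add no support to its counts. Scaling by DESeq2 size factors or by library size alone gave 0, 8 and 7 receptors, as in the main counts. The cause was not tested.

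The replicate numbers were not taken to pair the libraries, because deviations of same-numbered libraries correlated at -0.178, 0.456 and 0.0329 in the 3 comparisons. With the number as a replicate block, 2, 2680 and 2684 genes and 0, 8 and 8 receptors were called, Cx3cr1 being added between the treatments (FDR 0.00869). In CAF-1 OFF against control the block called Anxa1 (FDR 0.0362) and not Cxcl3 (FDR 0.119). A block with the CAF-1 OFF numbers crossed, chosen after seeing the data, called 71, 2994 and 3030 genes and 0, 8 and 7 receptors. Depth limits the values of Fpr1, Fpr2, C3ar1 and Cmklr1, where a few reads decide a group.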

Other observations

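The 2 HOXA9 OFF libraries differed in several ligand genes as they did in C3ar1, which had 31 and 265 reads. These genes were chosen after their values were seen. Ccl2, the Ccr2 ligand, had 0 and 192 reads, beside 4 and 7 in control and 6 and 14 in CAF-1 OFF. Ccl7, which also binds Ccr2, had 0 and 55 reads, with at most 1 in any other library, and Ppbp had 6 and 122. In each of these genes library 2 was the higher, and Ccr2 itself was at 67.2 and 212 CPM. Cxcr2, Cxcr4 and Cx3cr1 were higher in library 1. No label separates these libraries, and Ccl2 was not called against control by edgeR (FDR 0.124).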
